A study of Homo sapiens with 32 samples.

Results

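The genes described here encode collagens, laminins, integrins, the discoidin domain receptors DDR1 and DDR2, fibronectin (FN1) and the collagen-binding glycoprotein SPARC. Members of these families were taken by symbol, as every symbol of the form COL, number, A, number, every laminin chain LAMA, LAMB or LAMC, every numbered integrin chain ITGA or ITGB, and ITGAV, DDR1, DDR2, FN1 and SPARC. This gave 80 of the 62703 gene identifiers in the count tables, and the naming rule itself uses no measured value. They were read in the HEK293T cell line, which derives from human embryonic kidney, after CRISPR knockout of IGF2BP1, IGF2BP2 or IGF2BP3, which are RNA-binding proteins of 1 family.

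Poly(A) RNA was sequenced in 32 libraries as total, nuclear and cytoplasmic RNA of untreated cells. The control carried a non-targeting guide RNA, and each knockout was made by transient transfection of non-integrating plasmids with 3 guides against the gene and a GFP reporter. Each knockout was 1 clone grown from a single sorted cell and checked at the protein level, per the labels, and whether the control was a clone or a pool is not given in the sources used here. In each of the 3 RNA kinds there were 4 libraries of the control (batches 1 to 4), 2 of the IGF2BP1 knockout (batches 1 and 2), 2 of the IGF2BP2 knockout and 2 of the IGF2BP3 knockout (both batches 3 and 4). A further 2 cytoplasmic IGF2BP3 knockout libraries formed batch 5, which held no control. Since 1 clone stands for each knockout, the edited gene and the clone cannot be told apart, and p-values measure the spread between libraries, which may be technical. In these bulk samples fewer cells of a type and less RNA per cell cannot be told apart either.

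Collagens are triple helices wound from alpha chains. Fibrillar collagens form the fibres of tissue, collagen IV forms the network of basement membranes, and fibril-associated and beaded filament collagens link fibres to other parts of the matrix. Laminins are cross-shaped trimers of an alpha, a beta and a gamma chain that assemble on the cell surface and start a basement membrane. Integrins are pairs of an alpha and a beta chain that bind fibronectin, laminins or collagens outside the cell and connect to the actin skeleton inside it. DDR1 and DDR2 are receptor tyrosine kinases that bind collagen directly.

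Library depth ranged from 13689067 to 26119480 counts, and the 80 genes took on average 0.253% of the counts of total control RNA and 0.127% of those of cytoplasmic control RNA. In its own knockout the targeted RNA was at 5.16% to 6.34% of control for IGF2BP1, 38.1% to 40.2% for IGF2BP2 and 43.2% to 51.7% for IGF2BP3. IGF2BP1 was also called lower in each RNA kind of the IGF2BP2 and IGF2BP3 knockouts (63.6% to 76.1%). IGF2BP3 was likewise lower in the IGF2BP2 knockout (68.7% to 73.7%). IGF2BP2 was called lower only in total RNA of the IGF2BP1 knockout (68.6%) and cytoplasmic RNA of the IGF2BP3 knockout (80.6%). IGF2BP3 was called higher only in cytoplasmic RNA of the IGF2BP1 knockout (124%). The 8 markers taken for HEK293T cells (KRT8, KRT18, NEFL, NEFM, NEFH, VIM, PAX2 and CDH2) all passed the count filter in total RNA, while 1 of 5 blood markers and 1 of 5 endothelial markers did. Summed over 10 fibroblast and mesenchymal markers, total RNA held 20.4 to 26.7 CPM (counts scaled to the library total) in control, 17.6 to 21.9 after IGF2BP1 knockout, 28.7 to 30.0 after IGF2BP2 knockout, and 24.4 to 24.7 after IGF2BP3 knockout, with THY1 and DCN at 0 in control. In total RNA of the IGF2BP2 knockout 2 of the 6 tested fibroblast markers were higher and 0 lower, and in that of the IGF2BP3 knockout 2 higher and 1 lower. Of 5 epithelial markers 3 were tested there, and 0 were higher and 2 lower (median log2 fold change -1.15) for IGF2BP2 and 0 higher and 3 lower (-1.96) for IGF2BP3. Their sum in total RNA was 8.7 to 11.2 CPM in control, 8.05 to 11.2 after IGF2BP1 knockout, 6.67 to 7.51 after IGF2BP2 knockout and 5.87 to 7.46 after IGF2BP3 knockout. There KRT19 was at 0 after IGF2BP1 knockout, KRT7 and KRT19 after IGF2BP2 knockout, and KRT7 after IGF2BP3 knockout. In control KRT7 was at 0 in cytoplasmic and KRT19 in nuclear RNA, so both lie near the floor. Of the HEK293T markers 1 was higher and 3 were lower after IGF2BP1 knockout, 4 and 2 after IGF2BP2 knockout, and 5 and 3 after IGF2BP3 knockout. The part of these markers in the results was not tested. Total RNA library 2 and nuclear RNA library 1 of the IGF2BP1 knockout held identical counts (0 of 62703 identifiers differed), so 1 of these labels cannot be right. Without that library 6 of the 37 member calls of the IGF2BP1 knockout in total RNA ended and 1 was gained (COL17A1), and in nuclear RNA 6 of 30 ended and 2 were gained (COL11A2 and COL9A3). Counts by role are therefore also given without it where they change, as is each total or nuclear value of a member described for this knockout whose call it ends.

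The control libraries expressed a broad set of these genes. Of the 80 genes, 53 had a mean of at least 1 CPM over the 4 total RNA control libraries, 38 of at least 10 CPM and 7 of at least 100 CPM. ITGB6 had 0 counts in every library. COL10A1, COL11A1, COL1A2, COL22A1, COL28A1, COL8A2, ITGB6, ITGB7 and LAMB4, 9 members in all, passed the count filter in none of the 3 RNA kinds and never exceeded 0.853 CPM. COL1A2, the partner chain of COL1A1 in type I collagen, had at most 1 count in any library. Compared per exon length, the highest total control RNA levels were 40.9 ± 5.02 for COL6A1, 37.1 ± 3.84 for LAMC1, 23.7 ± 0.997 for ITGB1, 19.7 ± 3.34 for LAMB2 and 15.7 ± 1.14 for LAMB1 (RPKM, the CPM per kilobase of merged exon, mean ± SD, n = 4). COL6A1 and LAMC1 were closer to each other than the SD of COL6A1, and ITGB1 and LAMB2 differed by about the spread of LAMB2. COL6A1 is the first chain of collagen VI, LAMC1 the gamma chain shared by most laminins, and ITGB1 the common beta chain of collagen, laminin and fibronectin receptors.

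More members were called higher than lower in the IGF2BP2 and IGF2BP3 knockouts, and more lower than higher in total and nuclear RNA of the IGF2BP1 knockout. Calls rest on edgeR's quasi-likelihood test over all genes, at a threshold of 0.05 on the Benjamini-Hochberg adjusted p. Counts under an alternative or without a library are given without the share of all genes called in that fit. A lower count there need not be particular to the members. In total RNA of the IGF2BP1 knockout 37 of 71 tested members were called, 12 higher and 25 lower, beside 24.2% of all genes (10.7% higher, 13.5% lower). Nuclear RNA gave 30 of 69 (13 higher, 17 lower, beside 25.7% of all genes, 12.7% higher and 13.0% lower) and cytoplasmic RNA 31 of 67 (17 higher, 14 lower, beside 44.4% of all genes, 22.5% higher and 21.9% lower). Without the library that appears under both labels the total count was 32 (8 higher, 24 lower) and the nuclear count 26 (11 higher, 15 lower). The cytoplasmic count was 20 without cytoplasmic IGF2BP1 knockout replicate 2.

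In total RNA of the IGF2BP2 knockout 44 of 71 members were called, 30 higher and 14 lower, beside 47.0% of all genes (23.3% higher, 23.7% lower). Its nuclear RNA had 45 of 69 called (27 higher, 18 lower, beside 49.7% of all genes, 24.8% higher and 24.9% lower). Its cytoplasmic RNA had 50 of 67 called (28 higher, 22 lower, beside 64.2% of all genes, 30.9% higher and 33.2% lower). Without total IGF2BP2 knockout replicate 2 the total count was 29. For the IGF2BP3 knockout total RNA gave 50 of 71 members, 35 higher and 15 lower, beside 46.9% of all genes (23.5% higher, 23.4% lower). Nuclear RNA there gave 43 of 69 (30 higher, 13 lower, beside 50.4% of all genes, 25.1% higher and 25.3% lower). Cytoplasmic RNA there gave 49 of 67 (28 higher, 21 lower, beside 64.7% of all genes, 31.5% higher and 33.2% lower). Among all genes the calls of the IGF2BP2 and IGF2BP3 knockouts thus split almost evenly. Those in total RNA of the IGF2BP1 knockout leaned to lower also among all genes (10.7% higher, 13.5% lower). The median log2 fold change over the tested members in total, nuclear and cytoplasmic RNA was -0.28, -0.04 and 0.04 after IGF2BP1 knockout, 0.45, 0.22 and 0.25 after IGF2BP2 knockout, and 0.55, 0.49 and 0.33 after IGF2BP3 knockout. Over all genes tested in total RNA the medians were 0.00, 0.02 and 0.02. The IGF2BP2 and IGF2BP3 knockouts share the control libraries of batches 3 and 4, so their values are given side by side and no likeness between them is drawn.

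**Figure D1:**
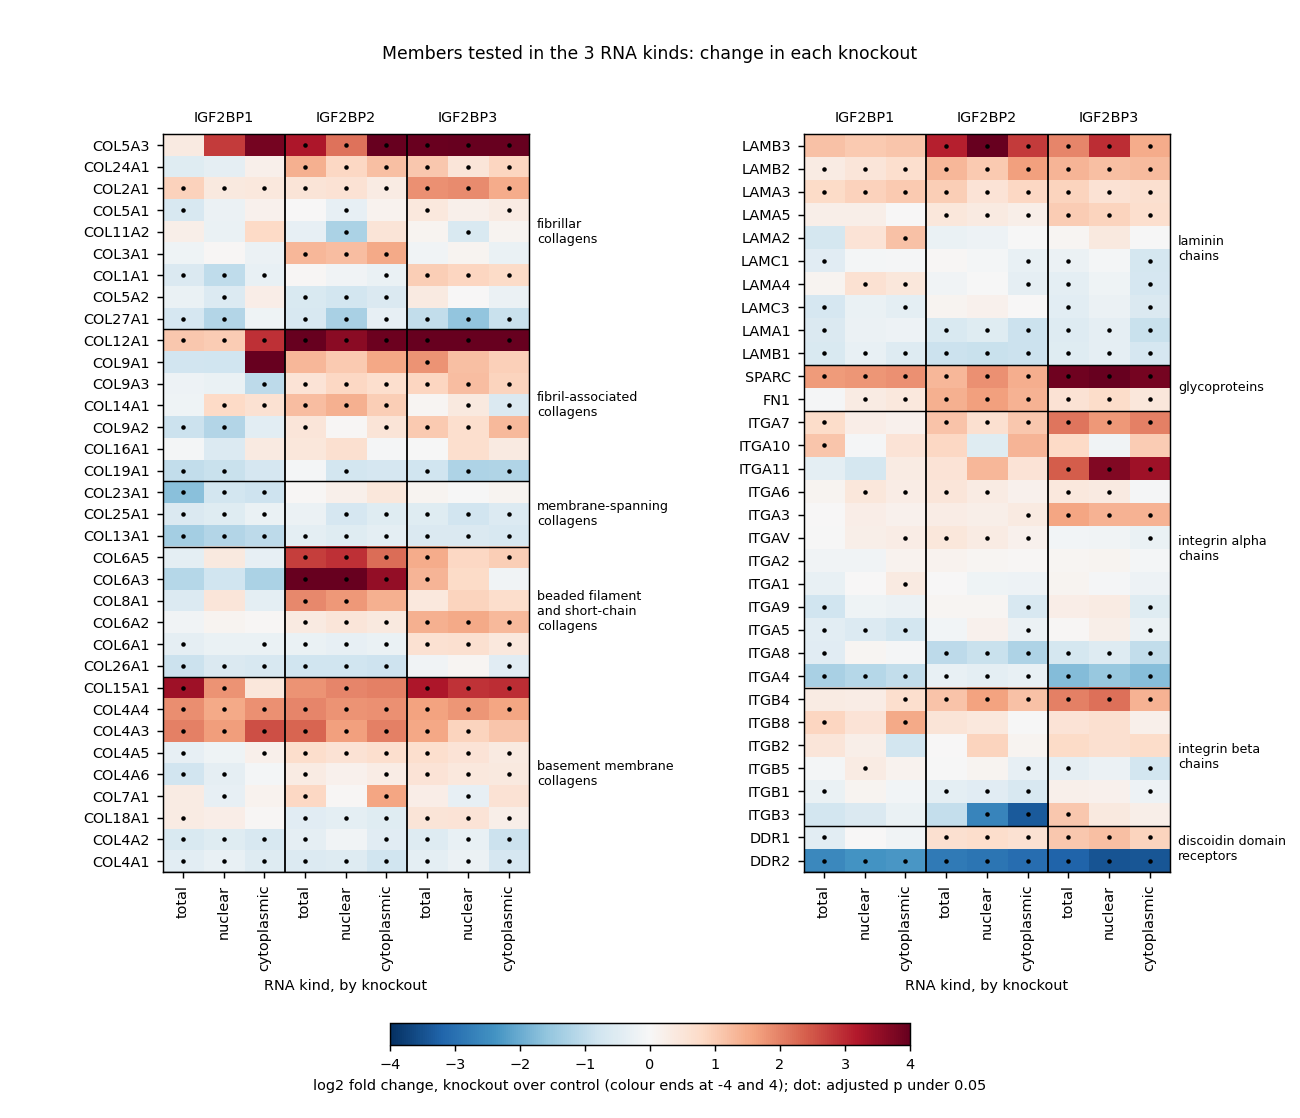
Log2 fold change against control (colour, red higher and blue lower) of members tested in the 3 RNA kinds, 1 line per gene grouped by role and 1 column per knockout and RNA kind, with a dot where the adjusted p was under 0.05. DDR2 is blue in every column, and SPARC, COL12A1, LAMA3 and LAMB2 are red in every column.

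Levels below are CPM, while fold changes were scaled by TMM factors. This moved the log2 fold changes of the IGF2BP2 and IGF2BP3 knockouts relative to CPM by -0.18 and -0.22 (total), -0.10 and -0.12 (nuclear), and -0.22 and -0.27 (cytoplasmic), and those of the IGF2BP1 knockout by -0.06, -0.02 and -0.07. The control range covers batches 1 to 4, and the fit compares each knockout with the control of its own batches. Values in threes after a gene are log2 fold changes in total, nuclear and cytoplasmic RNA, in that order, unless stated otherwise.

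Collagen IV, the collagen of basement membranes, has 6 chains encoded by pairs of genes that lie head to head and are read in opposite directions from a shared start region. In the RefSeq promoter table (GRCh38.p14) the starts of COL4A1 and COL4A2 lay 127 bp apart on chromosome 13 (110307157 and 110307284), those of COL4A4 and COL4A3 419 bp apart on chromosome 2 (227164205 and 227164624), and the nearer starts of COL4A6 and COL4A5 380 bp apart on chromosome X (108439458 and 108439838). The sequences before the starts are shown because each pair shares this stretch. They run 5′ to 3′ on the strand of the named gene, with capitals marking CCAAT and GGGCGG on either strand (ATTGG and CCGCCC as read here), and TATAAA was searched in the same way. The 126 bases between the starts of the first pair (chr13:110307158-110307283, plus strand) are given for COL4A2, and 250 bases each for COL4A4 (chr2:227164206-227164455, minus strand), COL4A3 (chr2:227164374-227164623, plus strand), COL4A6 (chrX:108439459-108439708, minus strand) and COL4A5 (chrX:108439588-108439837, plus strand).
COL4A2: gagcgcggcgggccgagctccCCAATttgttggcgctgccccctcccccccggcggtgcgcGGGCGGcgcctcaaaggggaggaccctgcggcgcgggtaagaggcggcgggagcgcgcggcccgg
COL4A4: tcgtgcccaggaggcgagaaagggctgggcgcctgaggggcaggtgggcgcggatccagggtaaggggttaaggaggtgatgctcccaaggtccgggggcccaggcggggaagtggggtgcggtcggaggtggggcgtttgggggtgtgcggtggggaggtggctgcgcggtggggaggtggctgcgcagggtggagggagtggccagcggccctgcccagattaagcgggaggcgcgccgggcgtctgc
COL4A3: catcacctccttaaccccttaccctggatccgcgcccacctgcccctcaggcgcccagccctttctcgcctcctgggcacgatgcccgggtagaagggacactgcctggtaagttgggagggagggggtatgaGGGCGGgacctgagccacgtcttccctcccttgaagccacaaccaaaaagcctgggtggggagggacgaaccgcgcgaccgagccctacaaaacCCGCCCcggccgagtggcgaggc
COL4A6: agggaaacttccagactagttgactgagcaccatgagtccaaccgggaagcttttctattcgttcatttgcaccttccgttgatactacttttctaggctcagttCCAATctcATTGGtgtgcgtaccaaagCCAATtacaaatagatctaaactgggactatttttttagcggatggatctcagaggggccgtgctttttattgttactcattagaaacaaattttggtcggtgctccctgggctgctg
COL4A5: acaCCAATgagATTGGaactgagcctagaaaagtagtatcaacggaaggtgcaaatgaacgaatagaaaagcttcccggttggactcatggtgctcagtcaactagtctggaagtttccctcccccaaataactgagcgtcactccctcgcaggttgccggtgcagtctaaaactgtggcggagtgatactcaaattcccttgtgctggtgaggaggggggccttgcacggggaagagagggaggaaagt

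The stretch between COL4A1 and COL4A2 was 80.2% G and C with 20 CG dinucleotides, those before COL4A4 and COL4A3 72.8% and 66.4% with 20 and 17, and those before COL4A6 and COL4A5 44.0% and 51.2% with 7 and 8. CCAAT was found 1 time in the first stretch, 3 times before COL4A6 and 2 times before COL4A5. GGGCGG was found 1 time in the first stretch and 2 times before COL4A3. TATAAA was in none of these stretches. The COL4A4 and COL4A3 stretches overlap, as do the COL4A6 and COL4A5 stretches, so the same letters can count for both. Of the 80 members 59 had a window of 250 bases before to 50 after a start (87 windows). CCAAT was in 25.29% of these windows and 34.61% of all 35116 windows, GGGCGG in 54.02% and 44.95%, and TATAAA in 13.79% and 11.53%. A match describes letters and not a bound site.

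COL4A1 and COL4A2, the chains of the widespread collagen IV network, were lower in the knockouts. COL4A1 was called lower in each of the 9 comparisons of a knockout with control, and COL4A2 in 8 of 9. In total RNA COL4A1 was at 78.0, 80.9, 71.0 and 67.2 CPM in the control libraries, 58.6 and 64.0 after IGF2BP1 knockout, 51.9 and 55.4 after IGF2BP2 knockout, and 62.7 and 60.4 after IGF2BP3 knockout. Every knockout library was below every control library, with log2 fold changes of -0.43 ± 0.10, -0.55 ± 0.10 and -0.38 ± 0.10 (± SE, adjusted p = 0.0056, 4.9e-04 and 0.0052). COL4A2 was at 148, 149, 135 and 128 CPM in the control libraries, 98.2 and 105 after IGF2BP1 knockout, 116 and 118 after IGF2BP2 knockout, and 107 and 107 after IGF2BP3 knockout, again without overlap. Its log2 fold changes in total RNA were -0.61 ± 0.09, -0.35 ± 0.09 and -0.51 ± 0.09 (adjusted p = 3.5e-04, 0.0054 and 4.0e-04). In nuclear RNA of the IGF2BP2 knockout COL4A2 was at -0.13 ± 0.10 (adjusted p = 0.27), not called. The nuclear COL4A1 call of the IGF2BP1 knockout ended under 6 of 19 alternatives (adjusted p up to 0.17), among them the fit without the library under both labels (-0.21), and that of the IGF2BP3 knockout under 8 of 19 alternatives (adjusted p up to 0.27). Exons of COL4A2 overlap those of the antisense genes COL4A2-AS1 and COL4A2-AS2, and whether reads were counted by strand is not given in the sources used here. In all, 26 of the 80 members have an exon that overlaps an exon of an antisense gene. Among them are COL18A1 (SLC19A1), COL19A1 (LMBRD1), LAMA5 (ADRM1), ITGA7 (METTL7B and BLOC1S1) and ITGB1 (ITGB1-DT).

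COL4A3 and COL4A4, chains of the mature glomerular basement membrane, were higher. COL4A4 was called in each of the 9 comparisons, and no alternative ended any of these calls. Its total RNA level was 1.75, 1.61, 2.39 and 1.72 CPM in the control libraries, 6.70 and 5.93 after IGF2BP1 knockout, 8.71 and 9.85 after IGF2BP2 knockout, and 6.48 and 8.46 after IGF2BP3 knockout, and its log2 fold changes were 1.85 ± 0.21, 1.96 ± 0.20 and 1.61 ± 0.20. COL4A3 was at 0.299, 1.04, 1.08 and 0.458 CPM in the control libraries, 2.38 and 3.01 after IGF2BP1 knockout, 4.51 and 4.61 after IGF2BP2 knockout, and 2.59 and 2.84 after IGF2BP3 knockout. No knockout library overlapped the control range of either gene in total RNA. COL4A3 was called in 8 of 9 comparisons, and in cytoplasmic RNA of the IGF2BP3 knockout it was at 1.11 ± 0.50 (adjusted p = 0.052). Its IGF2BP3 call in total RNA ended without total control replicate 4 (adjusted p = 0.067), and its nuclear one under 5 of 19 alternatives (adjusted p up to 0.34).

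COL4A5 and COL4A6, which are joined in some epithelial and smooth muscle basement membranes, took different directions in different knockouts. In total RNA COL4A5 was at 73.6, 76.1, 61.8 and 60.5 CPM in the control libraries, 62.0 and 61.8 after IGF2BP1 knockout, 113 and 113 after IGF2BP2 knockout, and 113 and 111 after IGF2BP3 knockout. The IGF2BP2 and IGF2BP3 knockouts lay above all control libraries, while the IGF2BP1 knockout lay within the range of the 4 controls. The log2 fold changes of COL4A5 were -0.33 ± 0.09, 0.70 ± 0.09 and 0.66 ± 0.09 (adjusted p = 0.017, 3.8e-05 and 6.1e-05), and those of COL4A6 -0.76 ± 0.10, 0.32 ± 0.10 and 0.55 ± 0.10 (adjusted p = 1.7e-04, 0.016 and 5.1e-04). These are values in total RNA, and COL4A6 was not called in nuclear RNA of the IGF2BP2 knockout or cytoplasmic RNA of the IGF2BP1 knockout. In cytoplasmic RNA of the IGF2BP1 knockout COL4A5 was at 0.19 ± 0.07 (adjusted p = 0.030), opposite in sign to total RNA. The total call of COL4A5 in that knockout ended under 8 of 19 alternatives (adjusted p up to 0.26) and the cytoplasmic one under 7 of 21 alternatives (adjusted p up to 0.48).

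**Figure D2:**
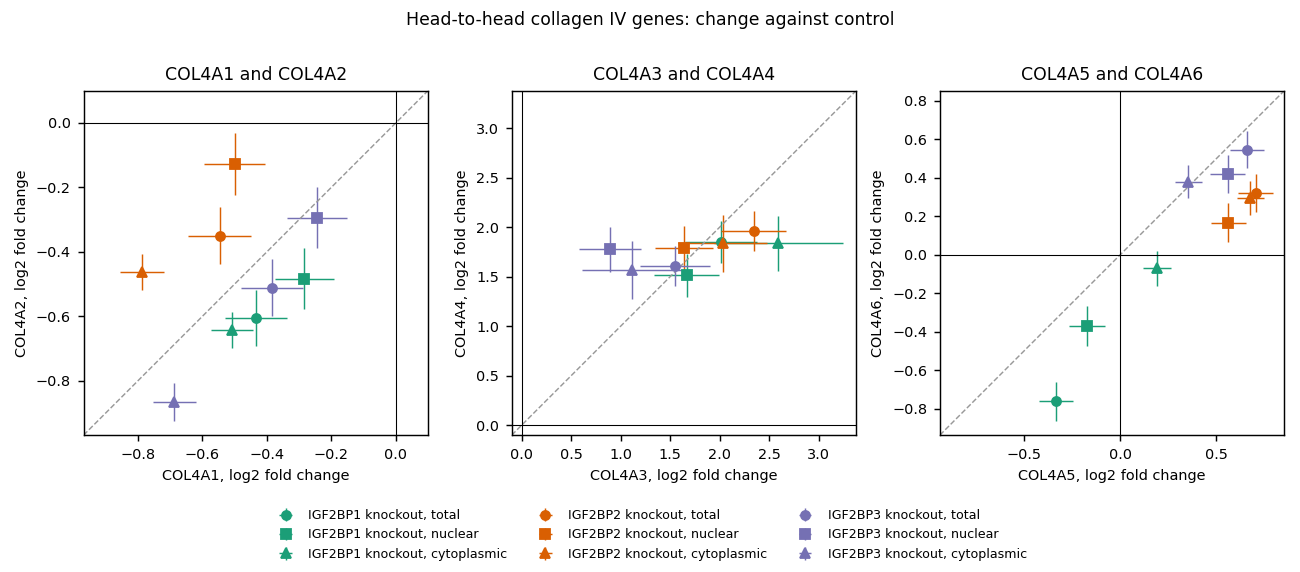
Log2 fold change of 1 gene of each head-to-head collagen IV pair against that of its neighbour, 1 panel per pair, with a point for each knockout (colour) and RNA kind (shape) and bars of 1 SE. The COL4A1 and COL4A2 points lie below 0 on both axes, the COL4A3 and COL4A4 points above 0 on both, and the COL4A5 and COL4A6 points on either side of 0.

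The other basement membrane collagens did not share 1 direction. COL18A1, the source of endostatin, fell in the IGF2BP2 knockout (-0.46, -0.40 and -0.49) and rose in the IGF2BP3 knockout (0.51, 0.55 and 0.24). Its cytoplasmic call in the IGF2BP3 knockout ended under 6 of 21 alternatives (adjusted p up to 0.99). COL7A1, the collagen of anchoring fibrils in skin, was at 22.2, 20.2, 24.1 and 19.5 CPM in the control libraries and 44.1 and 44.2 after IGF2BP2 knockout in total RNA, without overlap, a log2 fold change of 0.84 ± 0.12. It was not called higher in each of the 3 RNA kinds of that knockout, and its nuclear to cytoplasmic ratio fell there (-1.57). Of 9 tested basement membrane collagens, those called higher and lower in total, nuclear and cytoplasmic RNA were 4 and 4, 3 and 4, and 3 and 2 for IGF2BP1 (beside 24.2% to 44.4% of all genes called), with 3 and 4 in total RNA and 2 and 3 in nuclear RNA without the library under both labels. Basement membrane collagens gave 5 and 3, 4 and 2, and 5 and 3 for IGF2BP2 (beside 47.0% to 64.2%) and 6 and 2, 6 and 3, and 5 and 2 for IGF2BP3 (beside 46.9% to 64.7%).

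Among the fibrillar collagens COL2A1, the collagen of cartilage, rose in each of the 9 comparisons. Its total RNA level was 49.1, 49.6, 47.2 and 44.5 CPM in the control libraries, 94.6 and 98.0 after IGF2BP1 knockout, 72.1 and 75.6 after IGF2BP2 knockout, and 190 and 185 after IGF2BP3 knockout. All knockout libraries were above all control libraries, with log2 fold changes of 0.91 ± 0.09, 0.51 ± 0.09 and 1.82 ± 0.09 (adjusted p = 2.5e-05, 6.9e-04 and 3.5e-08). COL1A1, a chain of type I collagen, was at 29.8, 32.0, 30.7 and 30.2 CPM in the control libraries, 25.4 and 17.7 after IGF2BP1 knockout, 36.1 and 35.4 after IGF2BP2 knockout, and 69.7 and 69.3 after IGF2BP3 knockout. It rose in the IGF2BP3 knockout (0.98 ± 0.13, 0.86 ± 0.10 and 0.77 ± 0.08). In the IGF2BP1 knockout COL1A1 was called lower in each kind (-0.59, -1.02 and -0.31), and the total value without the library under both labels was -0.29 (adjusted p = 0.056). COL24A1 rose in the IGF2BP2 knockout (1.4, 0.81 and 1.20) and the IGF2BP3 knockout (1.07, 0.49 and 0.85).

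COL3A1, a collagen of blood vessels and skin, was at 3.84, 3.44, 3.14 and 2.98 CPM in the control libraries, 4.27 and 2.54 after IGF2BP1 knockout, 9.27 and 8.15 after IGF2BP2 knockout, and 3.32 and 3.08 after IGF2BP3 knockout in total RNA. It rose in the IGF2BP2 knockout (1.32, 1.23 and 1.51) and overlapped the control range, with no call, in each RNA kind of the other knockouts. COL27A1, a fibrillar collagen of cartilage, was called lower in 8 of 9 comparisons. Its nuclear level was 96.5, 116, 180 and 145 CPM in the control libraries, 54.3 and 42.2 after IGF2BP1 knockout, 71.6 and 70.0 after IGF2BP2 knockout, and 56.9 and 61.3 after IGF2BP3 knockout, with every knockout library below every control library. The nuclear log2 fold changes of COL27A1 were -1.16 ± 0.11, -1.29 ± 0.10 and -1.58 ± 0.11 (adjusted p = 4.0e-12, 2.9e-14 and 4.7e-17). COL5A2, a chain of type V collagen, fell in the IGF2BP2 knockout (-0.62, -0.74 and -0.58), where its total call ended under 6 of 19 alternatives (adjusted p up to 0.22). COL11A2 fell in nuclear RNA of the IGF2BP2 knockout (-1.26 ± 0.19) and was not called in its total (-0.32) or cytoplasmic RNA (0.52). Of 9 tested fibrillar collagens, those called higher and lower in total, nuclear and cytoplasmic RNA were 1 and 3, 1 and 3, and 1 and 1 for IGF2BP1 (beside 24.2% to 44.4% of all genes called), with 1 and 2 in total RNA without the library under both labels. Fibrillar collagens gave 4 and 2, 4 and 4, and 4 and 3 for IGF2BP2 (beside 47.0% to 64.2%) and 5 and 1, 4 and 2, and 5 and 1 for IGF2BP3 (beside 46.9% to 64.7%).

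Collagen VI forms beaded filaments around cells. Its chains COL6A1 and COL6A2, encoded close together on chromosome 21, rose in the IGF2BP3 knockout. In total RNA COL6A2 was at 87.6, 82.8, 67.9 and 63.6 CPM in the control libraries, 78.2 and 84.3 after IGF2BP1 knockout, 98.6 and 94.8 after IGF2BP2 knockout, and 207 and 200 after IGF2BP3 knockout. Its log2 fold changes were -0.13 ± 0.09, 0.37 ± 0.09 and 1.41 ± 0.09 (adjusted p = 0.34, 0.0051 and 1.9e-07), and only the IGF2BP1 knockout overlapped control. COL6A1 was at 246, 237, 199 and 193 CPM in the control libraries, 189 and 203 after IGF2BP1 knockout, 183 and 187 after IGF2BP2 knockout, and 344 and 346 after IGF2BP3 knockout. It gave -0.36 ± 0.09, -0.27 ± 0.09 and 0.60 ± 0.09, all called, and the IGF2BP2 call ended under 7 of 19 alternatives (adjusted p up to 0.22).

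COL6A3, a further collagen VI chain, did not follow the others. It was at 1.07, 0.885, 0.374 and 0.458 CPM in the control libraries, 0.794 and 0.141 after IGF2BP1 knockout, 14 and 15.8 after IGF2BP2 knockout, and 1.01 and 1.49 after IGF2BP3 knockout in total RNA. The IGF2BP2 knockout stood clear of the control libraries, with log2 fold changes of 4.96 ± 0.29, 4.05 ± 0.27 and 3.51 ± 0.30 (adjusted p = 8.5e-08, 4.5e-17 and 4.0e-12), and no alternative ended these calls. In total RNA of the IGF2BP3 knockout it was at 1.35 ± 0.43 with overlap of control, a call that ended under 6 of 19 alternatives (adjusted p up to 0.28). COL6A5 rose in the IGF2BP2 knockout (2.77 ± 0.32, 2.92 ± 0.35 and 2.23 ± 0.32) from 0.726, 0.364, 0.421 and 0.630 CPM in total control RNA. COL26A1 fell in the IGF2BP1 (-0.87, -0.58 and -0.64) and IGF2BP2 knockouts (-0.81, -0.80 and -0.83). Of 7, 7 and 6 tested members of the beaded filament and short-chain list, those called higher and lower in total, nuclear and cytoplasmic RNA were 0 and 2, 0 and 1, and 0 and 2 for IGF2BP1 (beside 24.2% to 44.4% of all genes called). Members of the beaded filament and short-chain list gave 4 and 2, 4 and 2, and 3 and 2 for IGF2BP2 (beside 47.0% to 64.2%) and 5 and 0, 3 and 0, and 3 and 1 for IGF2BP3 (beside 46.9% to 64.7%).

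COL12A1, a fibril-associated collagen found in dense connective tissue (chromosome 6, 75084326 to 75206051 in GENCODE release 29 on GRCh38), was called higher in each of the 9 comparisons. Its total RNA level was 0.683, 0.364, 0.421 and 0.401 CPM in the control libraries, 1.39 and 0.942 after IGF2BP1 knockout, 11.3 and 14.1 after IGF2BP2 knockout, and 24.3 and 26.3 after IGF2BP3 knockout. No knockout library overlapped the control range there. Its log2 fold changes in total RNA were 1.08 ± 0.32, 4.74 ± 0.23 and 5.70 ± 0.21 (adjusted p = 0.026, 1.7e-08 and 1.6e-09). In the IGF2BP2 and IGF2BP3 knockouts nuclear RNA gave 3.61 ± 0.25 and 4.68 ± 0.23, and cytoplasmic RNA 3.92 ± 0.37 and 4.68 ± 0.33, where 1 control library was at 0. No alternative ended these calls. The IGF2BP1 calls were less stable: without the library under both labels the adjusted p was 0.12 in total and 0.14 in nuclear RNA, and the cytoplasmic call ended under 4 of 20 alternatives (adjusted p up to 0.26).

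Other fibril-associated collagens differed between the knockouts. COL14A1, which binds collagen fibrils, rose in the IGF2BP2 knockout (1.24 ± 0.12, 1.4 ± 0.13 and 0.99 ± 0.12). In the IGF2BP3 knockout COL14A1 was 0.09 ± 0.13, 0.39 ± 0.14 and -0.58 ± 0.14, the nuclear and cytoplasmic values called in opposite directions. COL9A2, a chain of the cartilage collagen IX, rose in the IGF2BP3 knockout (1.03, 0.67 and 1.29) and fell in total and nuclear RNA of the IGF2BP1 knockout (-0.87 and -1.17). COL19A1 was called lower in the IGF2BP3 knockout (-0.80, -1.23 and -1.21), with each call lost under some alternatives (adjusted p up to 0.27, 0.15 and 0.17). Of 9, 8 and 7 tested fibril-associated collagens, those called higher and lower in total, nuclear and cytoplasmic RNA were 1 and 2, 2 and 2, and 2 and 1 for IGF2BP1 (beside 24.2% to 44.4% of all genes called), with 0 and 2 in total RNA and 1 and 3 in nuclear RNA without the library under both labels. Fibril-associated collagens gave 5 and 0, 3 and 1, and 4 and 0 for IGF2BP2 (beside 47.0% to 64.2%) and 4 and 1, 4 and 1, and 3 and 2 for IGF2BP3 (beside 46.9% to 64.7%).

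COL13A1, a membrane-spanning collagen of cell contacts including the neuromuscular junction, fell in each of the 9 comparisons. COL13A1 was at 11.2, 12.5, 12.4 and 11.3 CPM in the control libraries, 5.01 and 4.47 after IGF2BP1 knockout, 10.3 and 10.4 after IGF2BP2 knockout, and 9.07 and 9.55 after IGF2BP3 knockout in total RNA, with no overlap. Its log2 fold changes there were -1.37 ± 0.14, -0.38 ± 0.13 and -0.57 ± 0.13. The IGF2BP2 call in total RNA ended under 10 of 19 alternatives (adjusted p up to 0.24). The membrane-spanning collagens COL25A1 (-0.57, -0.49 and -0.25) and COL23A1 (-1.68, -0.73 and -0.83) fell in the IGF2BP1 knockout, and their cytoplasmic calls ended under 13 of 21 alternatives (adjusted p up to 0.26) and 8 of 21 alternatives (adjusted p up to 0.42). Without the library under both labels the nuclear value of COL23A1 was -0.69 (adjusted p = 0.11). Of 4, 3 and 3 tested membrane-spanning collagens, those called higher and lower in total, nuclear and cytoplasmic RNA were 0 and 3, 0 and 3, and 0 and 3 for IGF2BP1 (beside 24.2% to 44.4% of all genes called), with 0 and 4 in total RNA and 0 and 2 in nuclear RNA without the library under both labels. Membrane-spanning collagens gave 0 and 1, 0 and 2, and 0 and 2 for IGF2BP2 (beside 47.0% to 64.2%) and 1 and 2, 0 and 2, and 0 and 2 for IGF2BP3 (beside 46.9% to 64.7%).

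Among the beta chains of laminin, LAMB1 and LAMB2 took opposite directions. LAMB1, the beta chain of laminins made early in development (chromosome 7, 107923799 to 108003255), fell in each of the 9 comparisons. LAMB2, the beta chain that takes its place in mature glomerular and neuromuscular basement membranes (chromosome 3, 49121114 to 49133118), rose in each of the 9. In total RNA LAMB1 was at 135, 136, 119 and 120 CPM in the control libraries, 90.2 and 93.4 after IGF2BP1 knockout, 72.9 and 76.1 after IGF2BP2 knockout, and 96.2 and 104 after IGF2BP3 knockout. LAMB2 was at 158, 151, 115 and 115 CPM in the control libraries, 195 and 209 after IGF2BP1 knockout, 326 and 329 after IGF2BP2 knockout, and 352 and 342 after IGF2BP3 knockout. No knockout library overlapped the control range of either gene in total RNA. The log2 fold changes in total RNA were -0.62 ± 0.09, -0.87 ± 0.09 and -0.47 ± 0.09 for LAMB1 (adjusted p = 2.9e-04, 7.3e-06 and 7.2e-04) and 0.33 ± 0.09, 1.32 ± 0.09 and 1.37 ± 0.09 for LAMB2 (adjusted p = 0.015, 2.4e-07 and 1.5e-07). LAMB3, at a mean of 0.923 CPM over all libraries, was called higher in the 3 RNA kinds of the IGF2BP2 and IGF2BP3 knockouts. It was called in none of those of the IGF2BP1 knockout, and LAMB4 was not tested. Exons of LAMB1 overlap those of DLD on the other strand. The nuclear LAMB1 value of the IGF2BP1 knockout was -0.21 without the library under both labels (adjusted p = 0.17), and its total LAMB2 call ended under 4 of 19 alternatives (adjusted p up to 0.20).

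LAMA3, the alpha chain of epithelial laminins, rose in each of the 9 comparisons, and no alternative ended a call. It was at 41.5, 40.1, 39.9 and 37.2 CPM in the control libraries, 67.3 and 79.1 after IGF2BP1 knockout, 86.5 and 86.9 after IGF2BP2 knockout, and 80.5 and 86.5 after IGF2BP3 knockout in total RNA, with no overlap, and changed by 0.78 ± 0.11, 0.99 ± 0.11 and 0.90 ± 0.11. LAMA1, the alpha chain of the first embryonic laminin, fell in the IGF2BP2 (-0.62, -0.49 and -0.85) and IGF2BP3 knockouts (-0.51, -0.36 and -0.90). LAMA5, a broadly expressed alpha chain, rose in the IGF2BP3 knockout (1.00, 0.88 and 0.68), and its exons overlap those of ADRM1 on the other strand. LAMC1 was not called in nuclear RNA of any knockout (-0.07 ± 0.10, -0.09 ± 0.10 and -0.08 ± 0.10), and it fell in cytoplasmic RNA of the IGF2BP3 knockout (-0.71 ± 0.05). It was also called lower in total RNA of the IGF2BP1 knockout, where its value without the library under both labels was -0.42. Of 11 tested laminin chains, those called higher and lower in total, nuclear and cytoplasmic RNA were 2 and 4, 3 and 1, and 4 and 2 for IGF2BP1 (beside 24.2% to 44.4% of all genes called), with 3 and 0 in nuclear RNA without the library under both labels. Laminin chains gave 5 and 2, 5 and 2, and 5 and 4 for IGF2BP2 (beside 47.0% to 64.2%) and 5 and 5, 5 and 2, and 5 and 5 for IGF2BP3 (beside 46.9% to 64.7%).

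SPARC, a secreted glycoprotein that binds collagen and takes part in its deposition (chromosome 5, 151661096 to 151687165), rose in each of the 9 comparisons. Its total RNA level was 4.10, 3.85, 3.42 and 3.95 CPM in the control libraries, 13.3 and 14 after IGF2BP1 knockout, 9.83 and 11.0 after IGF2BP2 knockout, and 63.3 and 62.9 after IGF2BP3 knockout. Each knockout stood clear of the control libraries, and the IGF2BP3 knockout clear of the others. The log2 fold changes were 1.71 ± 0.14, 1.33 ± 0.15 and 3.89 ± 0.13 in total RNA (adjusted p = 5.1e-06, 1.5e-05 and 1.2e-09), and 4.56 ± 0.14 in nuclear and 3.83 ± 0.10 in cytoplasmic RNA of the IGF2BP3 knockout. No alternative ended a SPARC call in these 9 comparisons. SPARC exons overlap those of the antisense gene CLMAT3. FN1, the matrix ligand of several integrins, was at 66.9, 69.2, 62.6 and 59.5 CPM in the control libraries, 73.7 and 64.2 after IGF2BP1 knockout, 175 and 195 after IGF2BP2 knockout, and 97.7 and 115 after IGF2BP3 knockout in total RNA. The IGF2BP1 knockout overlapped control and the other knockouts lay above it. FN1 gave -0.04 ± 0.10, 1.41 ± 0.10 and 0.58 ± 0.10 in total RNA (adjusted p = 0.81, 5.1e-07 and 5.4e-04). In nuclear and cytoplasmic RNA of the IGF2BP1 knockout, unlike in total RNA, FN1 was called higher. Its nuclear value there was 0.53 without the library under both labels.

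Among the integrin alpha chains ITGA4, which binds fibronectin and VCAM1, fell in each of the 9 comparisons. It was at 30.2, 34.4, 30.0 and 32.5 CPM in the control libraries, 14.4 and 12.7 after IGF2BP1 knockout, 28.7 and 29.1 after IGF2BP2 knockout, and 10.9 and 11.1 after IGF2BP3 knockout in total RNA. The IGF2BP2 knockout lay just below the control range and the others further below it. The log2 fold changes were -1.31 ± 0.12, -0.29 ± 0.11 and -1.72 ± 0.12 (adjusted p = 1.1e-05, 0.047 and 3.1e-07). The IGF2BP2 call of ITGA4 in total RNA ended under 12 of 19 alternatives (adjusted p up to 0.31). Of 12 tested integrin alpha chains, those called higher and lower in total, nuclear and cytoplasmic RNA were 2 and 4, 1 and 2, and 3 and 2 for IGF2BP1 (beside 24.2% to 44.4% of all genes called), with 1 and 4 in total RNA without the library under both labels. Integrin alpha chains gave 3 and 2, 3 and 2, and 3 and 4 for IGF2BP2 (beside 47.0% to 64.2%) and 4 and 2, 4 and 2, and 3 and 5 for IGF2BP3 (beside 46.9% to 64.7%).

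ITGA7, a laminin-binding chain of muscle, was at 17.2, 18.7, 17.8 and 18.0 CPM in the control libraries, 27.2 and 35.3 after IGF2BP1 knockout, 44.8 and 44.1 after IGF2BP2 knockout, and 93.0 and 89.9 after IGF2BP3 knockout in total RNA, without overlap, and rose by 0.73 ± 0.11, 1.13 ± 0.11 and 2.14 ± 0.11. In nuclear RNA of the IGF2BP1 knockout ITGA7 was not called, and its value without the library under both labels was -0.02. Exons of ITGA7 overlap those of METTL7B and BLOC1S1 on the other strand. ITGA3, another laminin receptor chain, rose in the IGF2BP3 knockout (1.59, 1.40 and 1.38). ITGA8, which pairs with ITGB1 in the developing kidney, fell in the IGF2BP2 (-1.04, -0.88 and -1.22) and IGF2BP3 knockouts (-0.71, -0.53 and -0.97). ITGA5, the classical fibronectin receptor chain, fell in the IGF2BP1 knockout (-0.42, -0.53 and -0.74). ITGAV, a chain of vitronectin and fibronectin receptors, rose in the IGF2BP2 knockout (0.44, 0.32 and 0.18), where the cytoplasmic call ended under 7 of 21 alternatives (adjusted p up to 0.58).

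The common beta chain ITGB1 was at 138, 143, 139 and 151 CPM in the control libraries, 115 and 126 after IGF2BP1 knockout, 130 and 122 after IGF2BP2 knockout, and 189 and 194 after IGF2BP3 knockout in total RNA. It fell in the IGF2BP2 knockout (-0.39 ± 0.09, -0.44 ± 0.10 and -0.63 ± 0.05). In total RNA of the IGF2BP1 knockout it was at -0.28 ± 0.09 (adjusted p = 0.041), a call that ended under 14 of 19 alternatives (adjusted p up to 0.35). In cytoplasmic RNA of the IGF2BP3 knockout ITGB1 was called lower (-0.19 ± 0.05) although its CPM values of 90.3 and 86.7 lay above the 83.9 and 84.1 of the control of the same batches, so the scaling sets the direction there. ITGB4, the beta chain of hemidesmosomes, was at 3.97, 2.60, 2.90 and 2.75 CPM in the control libraries, 4.72 and 3.81 after IGF2BP1 knockout, 7.35 and 6.74 after IGF2BP2 knockout, and 14.2 and 12.2 after IGF2BP3 knockout in total RNA. It rose in the IGF2BP2 (1.14 ± 0.17, 1.60 ± 0.21 and 1.17 ± 0.15) and IGF2BP3 knockouts (2.01 ± 0.16, 2.22 ± 0.20 and 1.39 ± 0.14). ITGB5, a vitronectin receptor chain, fell in total (-0.37 ± 0.10) and cytoplasmic RNA (-0.73 ± 0.07) of the IGF2BP3 knockout. Of 6 tested integrin beta chains, those called higher and lower in total, nuclear and cytoplasmic RNA were 1 and 1, 1 and 0, and 2 and 0 for IGF2BP1 (beside 24.2% to 44.4% of all genes called), with 0 and 1 in total RNA without the library under both labels. Integrin beta chains gave 1 and 1, 1 and 2, and 1 and 3 for IGF2BP2 (beside 47.0% to 64.2%) and 2 and 1, 1 and 0, and 1 and 2 for IGF2BP3 (beside 46.9% to 64.7%).

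The discoidin domain receptors moved in opposite directions in the IGF2BP2 and IGF2BP3 knockouts. DDR2, a receptor for fibrillar collagen on mesenchymal cells (chromosome 1, 162631373 to 162787400), fell in each of the 9 comparisons. Its total RNA level was 42.7 and 43.4 CPM in the control of batches 1 and 2, 87.4 and 88.4 in that of batches 3 and 4, 7.89 and 6.97 after IGF2BP1 knockout, 13.0 and 15.2 after IGF2BP2 knockout, and 10.3 and 11.9 after IGF2BP3 knockout. All knockout libraries were far below all control libraries, and the control itself differed between the batch pairs. The control batches differed likewise in nuclear RNA, where control DDR2 was at 38.2, 39.7, 71.0 and 68.2 CPM, and in cytoplasmic RNA, where it was at 24.9, 27.4, 45.6 and 42.7 CPM. Log2 fold changes of DDR2 against the control of the same batches were -2.59 ± 0.12, -2.40 ± 0.12 and -2.31 ± 0.10 after IGF2BP1 knockout, -2.82 ± 0.11, -2.93 ± 0.12 and -3.06 ± 0.09 after IGF2BP2 knockout, and -3.20 ± 0.12, -3.46 ± 0.12 and -3.41 ± 0.09 after IGF2BP3 knockout. The adjusted p in total RNA was 3.3e-08, 3.4e-09 and 1.4e-09, and no alternative ended a DDR2 call in the 9 comparisons.

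DDR1, the collagen receptor of epithelial cells, was at 36.0, 40.0, 29.2 and 29.8 CPM in the control libraries, 30.6 and 28.4 after IGF2BP1 knockout, 50.4 and 54.4 after IGF2BP2 knockout, and 76.5 and 69.1 after IGF2BP3 knockout in total RNA. The IGF2BP2 and IGF2BP3 knockouts lay above the control range and the IGF2BP1 knockout overlapped it. DDR1 rose in the IGF2BP2 (0.65 ± 0.11, 0.70 ± 0.11 and 0.62 ± 0.07) and IGF2BP3 knockouts (1.09 ± 0.11, 1.19 ± 0.11 and 0.88 ± 0.07). In total RNA of the IGF2BP1 knockout it was at -0.42 ± 0.11, and without the library under both labels at -0.30 (adjusted p = 0.054).

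**Figure D3:**
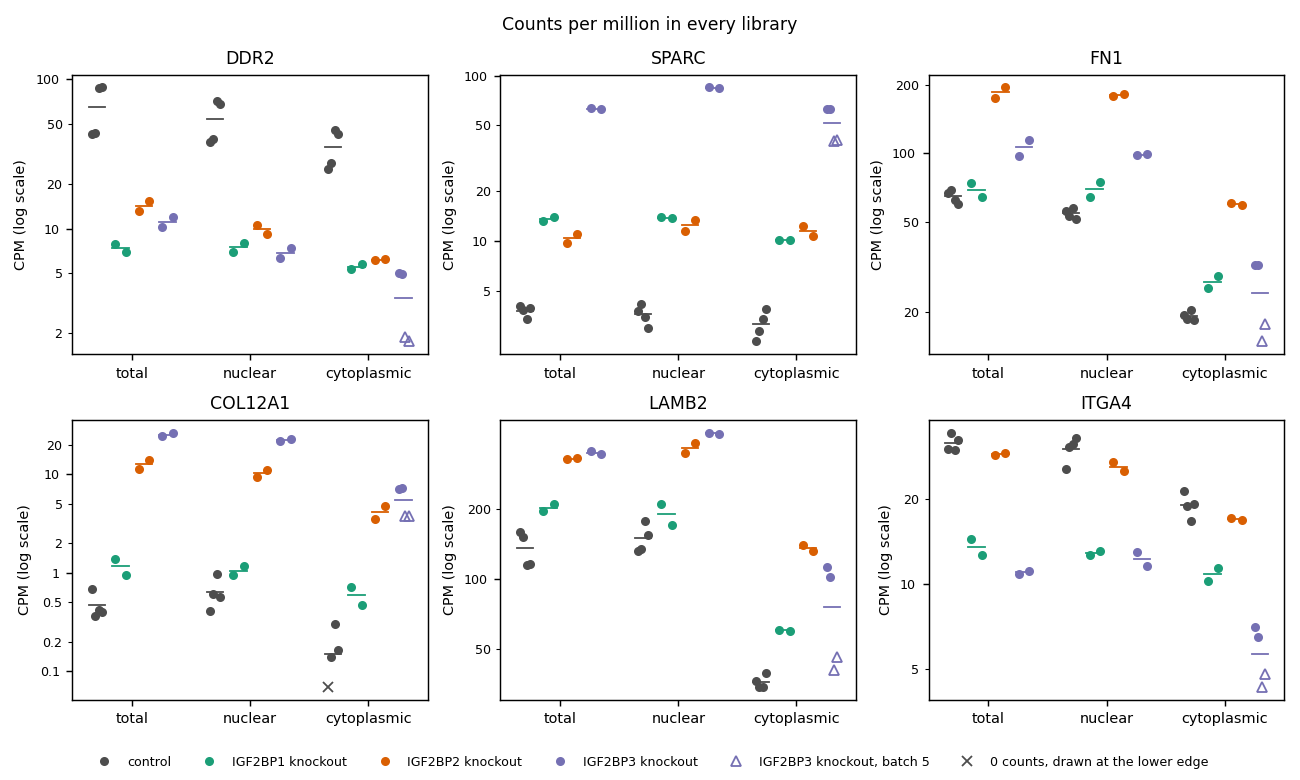
CPM in every library on a log axis for DDR2, SPARC, FN1, COL12A1, LAMB2 and ITGA4, 1 panel per gene, with total, nuclear and cytoplasmic RNA from left to right, 1 point per library coloured by genotype, lines at group means, open triangles for batch 5 and a cross at the lower edge for 0 counts. DDR2 points of the knockouts lie below those of the control, and SPARC points of the knockouts lie above them.

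Across the 3 RNA kinds, 67 members were tested in every one. In the IGF2BP1 knockout 7 of them were called higher in the 3 kinds and 11 lower, after IGF2BP2 knockout 24 and 13, and after IGF2BP3 knockout 26 and 11, while 18, 11 and 11 were called in none. Of the 17587 genes tested in the 3 kinds, 4.22% were called higher and 6.6% lower in each kind after IGF2BP1 knockout. These shares were 15.8% and 16.2% after IGF2BP2 knockout, and 17.1% and 18.0% after IGF2BP3 knockout. Called higher in all 9 comparisons were COL12A1, COL2A1, COL4A4, LAMA3, LAMB2 and SPARC, and called lower in all 9 were COL13A1, COL4A1, DDR2, ITGA4 and LAMB1, beside 1.64% and 1.6% of all genes. Of the IGF2BP1 calls in these counts, those of COL12A1, COL1A1, COL23A1, COL4A1 and LAMB1 ended in total or nuclear RNA without the library under both labels. These counts are descriptions, since comparisons share control libraries.

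The IGF2BP3 and IGF2BP2 knockouts were also compared with each other within batches 3 and 4. In total RNA 40 of 71 members differed (22 higher and 18 lower in the IGF2BP3 knockout, beside 43.3% of all genes, 21.8% and 21.5%), in the nuclear fraction 40 of 69 (26 and 14, beside 48.2%, 24.1% and 24.1%) and in the cytoplasmic fraction 42 of 67 (20 and 22, beside 62.7%, 31.3% and 31.5%). The total count was 24 without total IGF2BP2 knockout replicate 1, 25 without its replicate 2 and 25 without total IGF2BP3 knockout replicate 1, and the nuclear count was 26 without nuclear IGF2BP3 knockout replicate 2. In the 3 kinds alike, 19 members were higher and 14 lower, beside 18.3% and 18.6% of the genes tested in the 3 kinds. SPARC was higher in the IGF2BP3 knockout by log2 differences of 2.56 ± 0.12, 2.72 ± 0.12 and 2.39 ± 0.07. COL6A3 was lower (-3.62 ± 0.23, -3.28 ± 0.24 and -3.65 ± 0.27), as were COL3A1 (-1.47, -1.12 and -1.78), FN1 (-0.83, -0.90 and -0.93) and ITGA4 (-1.43, -1.11 and -1.39). COL2A1 (1.31, 1.31 and 1.16), COL6A2 (1.04, 1.03 and 0.91), ITGA3 (1.28, 1.18 and 1.02) and ITGA7 (1.01, 1.09 and 0.94) were higher. ITGB3, a chain of vitronectin receptors at no more than 1.24 CPM in these libraries, was higher by 2.02 ± 0.46, 3.03 ± 0.75 and 3.59 ± 0.65.

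The IGF2BP1 knockout shares no batch with the others, so its difference from them was tested through the controls, in cytoplasmic RNA. The effect of the IGF2BP2 knockout differed from it in 34 of 67 members (20 higher, 14 lower, beside 48.4% of all genes, 20.9% and 27.5%) and that of the IGF2BP3 knockout in 32 of 67 (17 higher, 15 lower, beside 51.3%, 22.2% and 29.1%), shares near those of all genes. Relative to the IGF2BP1 knockout, COL6A3 stood 4.78 ± 0.76 and COL3A1 1.74 ± 0.36 higher on the log2 scale in the IGF2BP2 knockout, and ITGA8 was at -1.19 ± 0.12. SPARC stood 1.98 ± 0.21 and ITGA7 1.82 ± 0.17 higher in the IGF2BP3 knockout. DDR2 was at -0.74 ± 0.15 and -1.10 ± 0.15 in these differences. With the batch term dropped the first of these was 0.01, so it turns on the difference between the control batches.

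In the control, more of these genes were higher in nuclear than in cytoplasmic RNA than among all genes. Of 59 members tested 47 were higher in nuclear RNA and 0 lower (65.9% of all genes differed, 32.6% higher and 33.3% lower), and the median log2 difference was 0.83 beside -0.02 over all genes. COL7A1 had a nuclear excess of 4.37 ± 0.12, COL11A2 of 3.88 ± 0.18 and COL27A1 of 2.76 ± 0.09 on the log2 scale. COL27A1 was at 96.5, 116, 180 and 145 CPM in nuclear and 17.9, 15.9, 16.7 and 19.8 CPM in cytoplasmic control RNA, far apart in every library. The counts and medians were 8 of 8 and 1.23 for basement membrane collagens, 8 of 8 and 1.13 for fibrillar collagens, 9 of 10 and 1.00 for laminin chains, 9 of 11 and 0.63 for integrin alpha chains, and 2 of 6 and -0.19 for integrin beta chains. These values are shares of each poly(A) library, not amounts per cell. The median over the 3 tested nuclear RNA markers was 2.15, and over 6 mitochondrial RNAs -2.0.

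How far the RNA of members was nuclear was read as the nuclear to cytoplasmic ratio against control. This ratio changed in 2.86% of tested members after IGF2BP1 knockout, 11.4% after IGF2BP2 knockout and 18.6% after IGF2BP3 knockout. Only in the IGF2BP3 knockout was this above the share of all genes. In the IGF2BP1 knockout 2 of 70 tested members changed (0 higher, 2 lower, beside 4.11% of all genes, 2.36% higher and 1.76% lower). The IGF2BP2 knockout had 8 (2 higher, 6 lower, beside 17.5% of all genes, 7.77% higher and 9.71% lower) and the IGF2BP3 knockout 13 (11 higher, 2 lower, beside 10.9%, 4.07% higher and 6.8% lower). COL27A1 fell in its ratio in each, by log2 differences of -0.97 ± 0.14, -1.0 ± 0.14 and -0.76 ± 0.14 (adjusted p = 4.6e-07, 2.7e-09 and 2.3e-05). COL7A1 fell in the IGF2BP2 (-1.57 ± 0.25) and IGF2BP3 knockouts (-0.96 ± 0.28). COL11A2 fell in the IGF2BP2 knockout (-1.80 ± 0.44). Ratios that rose included COL14A1 (0.91 ± 0.20) and ITGB4 (0.77 ± 0.26) in the IGF2BP3 knockout, and ITGB5 (0.40 ± 0.13) and ITGA5 (0.38 ± 0.12) in the IGF2BP2 knockout. COL1A1 fell in the IGF2BP1 knockout (-0.69 ± 0.14), with an adjusted p of 0.051 without the library under both labels. Without it COL11A2 was called instead (-1.82, adjusted p = 0.039), so the count stayed at 2.

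These ratio counts depended on single libraries. The IGF2BP1 count was 0 without replicate 2 of the control or of the knockout in either fraction, where the adjusted p of COL27A1 reached 0.26, and 4 without any 1 of the IGF2BP2 knockout libraries. The IGF2BP2 count was 5 without control replicate 3 or IGF2BP2 knockout replicate 2, and 4 without control replicate 4. The IGF2BP3 count was 8 without control replicate 3, 4 without control replicate 4, 2 without cytoplasmic and 3 without nuclear IGF2BP3 knockout replicate 1, and 6 without IGF2BP3 knockout replicate 2. Markers of the fractions moved as well: the median ratio change of 3 nuclear RNAs was -0.43, -1.76 and -1.25 in the IGF2BP1, IGF2BP2 and IGF2BP3 knockouts, and that of 6 mitochondrial RNAs 0.37, -0.36 and 0.92. In cytoplasmic RNA the 5 nuclear RNA markers summed to 128 to 150 CPM in control, 171 to 173 after IGF2BP1 knockout, 636 to 663 after IGF2BP2 knockout, and 273 to 785 after IGF2BP3 knockout. The same sums in total RNA were 249 to 305, 293 to 334, 768 to 793 and 1168 to 1424 CPM, in this order. In nuclear RNA they were 262 to 372, 248 to 334, 511 to 558 and 974 to 1123 CPM. These markers thus also rose outside the cytoplasmic fraction in the IGF2BP2 and IGF2BP3 knockouts. Their part in the ratio results and in the cytoplasmic changes was not tested.

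The cytoplasmic libraries of the IGF2BP3 knockout from batch 5 had lower levels of these genes than those from batches 3 and 4. Of 67 members tested 41 were called lower and 0 higher (56.3% of all genes were called, 29.2% higher and 27.1% lower), and 60 of 67 had a lower fitted value, with a median of -0.50 beside -0.03 over all genes. SPARC was at 62.4 and 62.9 CPM in batches 3 and 4 and at 40.5 and 40.6 in batch 5. LAMB2 was at 113 and 102 and at 40.9 and 46.5 CPM, and DDR2 at 5.04 and 4.94 and at 1.88 and 1.76 CPM. The batches did not overlap in these genes. The fitted differences were -1.12 ± 0.06 for LAMB2 and -1.28 ± 0.17 for DDR2. Together the members took 0.106% and 0.117% of the counts in the batch 5 libraries, and 0.167% and 0.165% in those of batches 3 and 4. Cytoplasmic control libraries of batches 1 to 4 held 0.122% to 0.133%. The cytoplasmic changes of the IGF2BP3 knockout against control thus rest on batches 3 and 4, and batch 5 levels were below control in this share. The batch and any difference in the preparation of its fractions cannot be told apart.

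**Figure D4:**
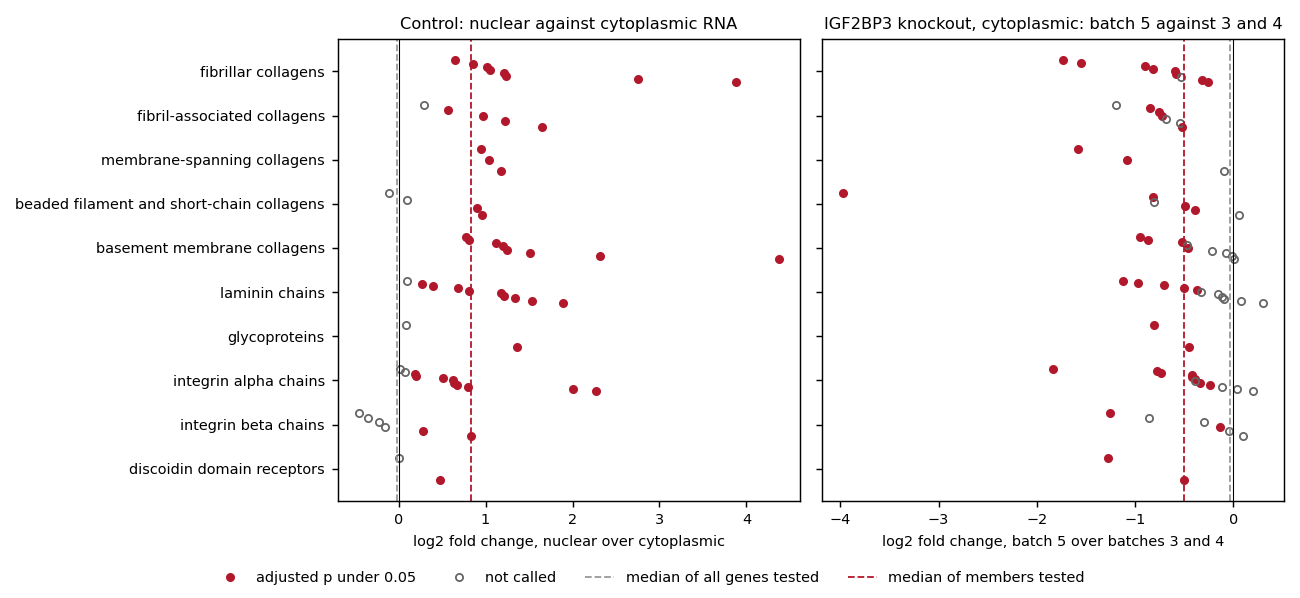
Log2 difference of each tested member by role: nuclear against cytoplasmic RNA in the control (left), and batch 5 against batches 3 and 4 in cytoplasmic RNA of the IGF2BP3 knockout (right), with 1 point per gene, filled where the adjusted p was under 0.05, and dashed lines at the medians of members and of all genes. On the left 54 of 59 points lie above 0, and on the right 60 of 67 lie below 0.

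Genes that process collagen, partner with it, link integrins to the cytoskeleton or cut the matrix were read from 4 further lists. For single genes of these lists no value under an alternative or without the library under both labels is given. Of 31, 31 and 30 tested collagen-processing enzymes, those called higher and lower in total, nuclear and cytoplasmic RNA were 3 and 8, 5 and 5, and 3 and 12 for IGF2BP1 (beside 24.2% to 44.4% of all genes called), with 1 and 12 in total RNA and 4 and 5 in nuclear RNA without the library under both labels. Collagen-processing enzymes gave 6 and 13, 7 and 10, and 8 and 16 for IGF2BP2 (beside 47.0% to 64.2%) and 6 and 9, 13 and 8, and 9 and 12 for IGF2BP3 (beside 46.9% to 64.7%). FKBP10, a collagen chaperone, fell in the IGF2BP1 (-0.40, -0.64 and -0.59) and IGF2BP2 knockouts (-0.76, -1.0 and -0.46), and COLGALT1, which glycosylates collagen, in the IGF2BP3 knockout (-0.96, -0.75 and -1.16). LOXL4, of the lysyl oxidase family that cross-links collagen, rose in the IGF2BP2 (1.26, 1.39 and 0.91) and IGF2BP3 knockouts (1.07, 1.30 and 0.79).

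Of 19, 21 and 19 tested matrix partners, those called higher and lower in total, nuclear and cytoplasmic RNA were 2 and 6, 7 and 2, and 7 and 5 for IGF2BP1 (beside 24.2% to 44.4% of all genes called), with 3 and 5 in total RNA and 7 and 1 in nuclear RNA without the library under both labels. Matrix partners gave 6 and 7, 7 and 5, and 6 and 9 for IGF2BP2 (beside 47.0% to 64.2%) and 8 and 5, 11 and 4, and 9 and 9 for IGF2BP3 (beside 46.9% to 64.7%). TNC, a matrix glycoprotein of wounds, rose in the IGF2BP2 knockout (3.31, 3.67 and 3.11), and HSPG2, the basement membrane proteoglycan perlecan, fell there (-1.20, -1.08 and -1.30). EFEMP2, an elastic fibre protein, rose in the IGF2BP3 knockout (1.47, 1.05 and 2.25). AGRN, which binds laminin, rose in the IGF2BP1 knockout (0.68, 0.56 and 0.32). THBS1 had 0 to 3 counts in the control libraries and 11 to 49 in those of the IGF2BP3 knockout, and no fold is given for it.

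Of 33 tested focal adhesion genes, those called higher and lower in total, nuclear and cytoplasmic RNA were 2 and 8, 3 and 7, and 8 and 7 for IGF2BP1 (beside 24.2% to 44.4% of all genes called), with 4 and 6 in total RNA and 4 and 1 in nuclear RNA without the library under both labels. Focal adhesion genes gave 6 and 12, 9 and 10, and 7 and 17 for IGF2BP2 (beside 47.0% to 64.2%) and 7 and 9, 9 and 7, and 9 and 18 for IGF2BP3 (beside 46.9% to 64.7%). ZYX, a cytoskeletal protein of adhesions, rose in the IGF2BP2 knockout (0.95, 1.14 and 1.18), and FERMT1, an integrin activator, fell in the IGF2BP2 (-1.51, -1.53 and -1.95) and IGF2BP3 knockouts (-1.49, -0.64 and -1.03). The nuclear FERMT1 call of the IGF2BP3 knockout lay close to the threshold (adjusted p = 0.049). Of 20, 21 and 21 tested matrix proteases and inhibitors, those called higher and lower in total, nuclear and cytoplasmic RNA were 1 and 8, 1 and 6, and 3 and 8 for IGF2BP1 (beside 24.2% to 44.4% of all genes called), with 1 and 6 in total RNA and 1 and 5 in nuclear RNA without the library under both labels. Matrix proteases and inhibitors gave 7 and 4, 10 and 3, and 8 and 7 for IGF2BP2 (beside 47.0% to 64.2%) and 8 and 3, 10 and 2, and 9 and 8 for IGF2BP3 (beside 46.9% to 64.7%). The metalloproteases MMP2 (-1.45, -1.19 and -1.27) and MMP16 (-1.83, -1.85 and -1.82) fell in the IGF2BP1 knockout, and the metalloprotease ADAM12 rose in the IGF2BP2 knockout (3.02, 2.31 and 2.71). The inhibitor TIMP3 fell in the IGF2BP2 (-0.71, -0.45 and -0.66) and IGF2BP3 knockouts (-0.90, -0.63 and -1.06). ADAMTS5 had 0 to 3 counts in the control libraries and 80 to 148 in those of the IGF2BP3 knockout.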

How the data were processed

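Total, nuclear and cytoplasmic poly(A) RNA of HEK293T cells was sequenced in 32 libraries. The authors deposited whole-number read counts per gene and FPKM values. The submitters' processing notes name STAR, featureCounts, DESeq2 1.44.0 and GRCh38, with no roles or order, and the strand setting is not given in the sources used here. The deposited FPKM followed each gene's genomic span and not its exon length, so levels were compared between genes as counts per kilobase of merged exon (GENCODE release 29). All 62703 identifiers were kept for library totals, and 20403 identifiers carried no gene name. Total counts ranged from 16179939 to 24690494 in total RNA, 13689067 to 26093403 in nuclear RNA and 16720159 to 26119480 in cytoplasmic RNA, and the biological coefficient of variation was 7.87%, 6.88% and 2.89%.

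Counts were fitted with edgeR 4.0.16 in R 4.3.3 (default filter on low counts, TMM scaling, quasi-likelihood test, Benjamini-Hochberg adjustment over all tested genes), with all groups of an RNA kind in 1 fit and the batch as a block. The labels give the batch: control replicates 1 to 4 are batches 1 to 4, so libraries of the same batch are paired. Batch 5 had no control and entered only the estimate of spread. The ratio test was the interaction of knockout and fraction in 1 fit. The procedure was tested on simulated data with a common spread for all genes and no batch or clone differences. That test therefore does not bear on batch or clone differences. Alternatives were RLE and upper quartile scaling, DESeq2 1.42.0, no count filter or a minimum mean of 1 CPM, no block, only the batches of the knockout, limma 3.58.1 on log2 of the deposited FPKM plus 1 or 0.1, and leaving out each library.

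The gene families and lists were chosen with earlier results of these data known, and the members then taken from these families by symbol alone. Named were DDR1, DDR2, FN1, SPARC, ITGB1 and the head-to-head collagen IV genes. Also named were, per role and knockout, up to 2 genes that rose and 2 that fell most among those called alike in the 3 RNA kinds whose mean reached 1 CPM, the 5 highest control levels, and the 2 largest ratio changes each way per knockout. Up to 2 each way were named between the IGF2BP3 and IGF2BP2 knockouts and per other list. Further members are named only beside these, after their values were seen. The values of 1 member are not reported here.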

Additional observations from a re-analysis of the deposited data

Results flagged for a closer look

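In groups of 4 libraries, 4 of 192 member values stood apart from the other 3 libraries of their group by Dixon's test, while chance gives about 1 in 20. COL11A2 was at 3.95 CPM in total control replicate 4, below the 5.85 to 6.04 of the others. COL1A1 was at 17.4 CPM in cytoplasmic control replicate 3, below 21.0 to 21.7, and at 31.0 CPM in nuclear control replicate 4, below 36.2 to 36.5. LAMC1 was at 112.9 CPM in cytoplasmic IGF2BP3 knockout replicate 3, below 127.4 to 129.0.

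The change with a knockout differed between nuclear and cytoplasmic RNA, by edgeR's interaction test, for these members, given as log2 of the nuclear over the cytoplasmic change. In the IGF2BP1 knockout these were COL1A1 (-0.69) and COL27A1 (-0.97). In the IGF2BP2 knockout they were COL11A2 (-1.80), COL27A1 (-1.0), COL5A1 (-0.51), COL7A1 (-1.57), ITGA5 (0.38), ITGA7 (-0.46), ITGB5 (0.40) and LAMB2 (-0.65). In the IGF2BP3 knockout they were COL14A1 (0.91), COL27A1 (-0.76), COL2A1 (0.35), COL4A1 (0.38), COL4A2 (0.51), COL7A1 (-0.96), ITGA5 (0.41), ITGB4 (0.77), ITGB5 (0.43), LAMA1 (0.48), LAMA4 (0.43), LAMC1 (0.58) and SPARC (0.67).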

How the results depend on the processing

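Of 566 named gene values called, 355 were called in the same direction under every alternative run. Over 10507 alternative values 9569 kept call and direction, 932 kept only the direction and 6 turned it, all without the replicate block: COL18A1 in cytoplasmic RNA of the IGF2BP3 knockout (-0.0021), LAMA5 in that of the IGF2BP2 knockout (-0.032) and in the IGF2BP3 against IGF2BP1 difference (-0.018), DDR2 in the IGF2BP2 against IGF2BP1 difference (0.011), and ITGA8 (-0.071) and LAMB1 (-0.037) in cytoplasmic RNA of the IGF2BP3 against the IGF2BP2 knockout. Without the block, which pairs libraries by batch, the members called were 17 in cytoplasmic RNA of the IGF2BP1 knockout, and 4, 4 and 3 for the ratio in the IGF2BP1, IGF2BP2 and IGF2BP3 knockouts. DESeq2 called 1, 4 and 4 for these ratios, and RLE scaling 4 for the IGF2BP1 ratio. On log2(FPKM + 1) limma called 24 members in total and 11 in nuclear RNA of the IGF2BP1 knockout, and 14 in the latter with 0.1 added, a scale on which low genes change little.

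Leaving out each library gave 32 to 40 members in total, 22 to 30 in nuclear and 20 to 32 in cytoplasmic RNA of the IGF2BP1 knockout, 29 to 48, 36 to 45 and 42 to 50 for the IGF2BP2 knockout, and 36 to 53, 32 to 48 and 42 to 49 for the IGF2BP3 knockout. It gave 24 to 50, 26 to 42 and 34 to 43 for IGF2BP3 against IGF2BP2, 26 to 35 and 27 to 32 for IGF2BP2 and IGF2BP3 against IGF2BP1, 0 to 4, 4 to 9 and 2 to 15 for the ratios, 45 to 49 for the control fractions and 37 to 41 for batch 5. Where this left a knockout with 1 library in an RNA kind, it is assumed to vary like the others. The share of all genes called is not given beside these counts, so their shifts need not be particular to the members. With 2 libraries and 1 clone per knockout, members under about 1 CPM carry the least precise values.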
